A study of Macaca fascicularis with 6 samples.

Results

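The genes described here are the lipins and the other enzymes that assemble triglyceride in the liver: GPAM, AGPAT1, AGPAT2, AGPAT3, LPIN1, LPIN2, LPIN3, DGAT1, DGAT2 and MTTP. They were taken as a list of 10 human gene symbols, and every probe set annotated with one of these symbols and no other was used. For 9 of the 10 genes this gave 16 probe sets among the 54613 on the array that are not controls. AGPAT3 was named by no such probe set and was not analysed here.

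Liver RNA came from 3 cynomolgus macaques (Macaca fascicularis) treated with a liver X receptor (LXR) ligand and from 3 given vehicle, with each animal on its own Affymetrix array. The ligand arrays are titled with the letters GW, which are not explained. The identity of the ligand, its dose, the length of treatment and the age and feeding state of the animals are not given in the sources used here, and no other agent or genotype is named. The array is a human one, and macaque genes are called here by the human symbols of their probe sets, and how well each human probe set reads its macaque transcript was not tested. Values are MAS5 signals, intensities in arbitrary units, which can be compared between arrays for the same probe set but not between probe sets.

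Triglyceride is built on glycerol 3-phosphate in the endoplasmic reticulum and the outer mitochondrial membrane. GPAM encodes the mitochondrial acyltransferase that adds the first fatty acid, and the AGPAT enzymes add the next one to make phosphatidate. Lipins remove the phosphate to leave diacylglycerol, and lipin 1 can also enter the nucleus, where in mouse liver it acts with PGC-1 alpha and PPAR alpha as a coactivator of fatty acid oxidation genes. DGAT1 and DGAT2 add the last fatty acid, and MTTP, the microsomal triglyceride transfer protein, loads the product onto apolipoprotein B for secretion in very low density lipoprotein (VLDL). LXR is a sterol-sensing nuclear receptor that switches on SREBF1, whose product drives many genes of fatty acid and triglyceride synthesis.

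The array medians were 129 to 139 on the ligand arrays and 111 to 139 on the vehicle arrays. Ligand array 1 stood apart on the first principal component, at -89.9, against 0.772 to 36.7 for the other 5 arrays, and that component held 23.0% of the variance. The log2 ratio of the 3′ to the 5′ control probe set for ACTB, a measure of RNA integrity, was 2.62 to 4.003 on the ligand arrays and 2.15 to 3.06 on the vehicle arrays (exact two-sided permutation p = 0.40). For GAPDH it was 1.17 to 2.05 and 0.99 to 1.70 (exact two-sided permutation p = 0.60). With 3 arrays against 3 the smallest such p is 0.10, so neither test shows that RNA integrity was equal. The labelled tissue showed the defining products of hepatocytes, since all 6 listed markers were bright, with the dimmest at 12921. All 7 named macrophage markers of 8 listed were higher on average with the ligand, with summed signals of 16948 to 22450 (lowest and highest ligand array) against 9935 to 13429 with vehicle. All 6 stellate cell and fibroblast markers were named, and their sums were 31621 to 44308 with the ligand and 16024 to 25572 with vehicle. DCN and COL3A1 weighed most in these sums, with mean signals of 18750 and 10982 on the ligand arrays. Of the 6, 5 had higher means with the ligand and 1, COL1A1, a lower one. Its brightest probe set had a log2 difference of -0.22, with all ligand arrays below all vehicle arrays. The other 2 tested COL1A1 probe sets had positive differences. The sums of the other 7 marker lists (hepatocyte, endothelial, bile duct, T and NK cell, fat cell, muscle and red cell) overlapped between the groups. Of the 8 endothelial markers, 7 had higher means with the ligand, among them LYVE1, ENG and CDH5 at log2 differences of 1.02, 0.66 and 0.58 with groups that did not overlap. VWF, the remaining one, was at -3.39. No named marker read 0 on any array, which does not show that each was expressed. The lowest signal was 4.46 in the fat cell list, 11.1 in the bile duct list and 14.5 in the T and NK cell list. A difference in a piece of liver can come from more or fewer cells of a type or from more or less RNA in each cell, and these cannot be told apart in these arrays. The part of these markers in the results below was not tested.

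The question put to these genes was whether the enzymes that assemble triglyceride differed between livers of ligand-treated animals and livers of vehicle-treated animals. LPIN1 was the member with the clearest separation: its brightest probe set had a 1.87-fold lower mean with the ligand, and all 3 ligand arrays lay below all 3 vehicle arrays. None of the members passed limma's test across all probe sets at an adjusted p of 0.05. Among the acyltransferases, GPAM had higher means with the ligand on both probe sets without passing. AGPAT1, AGPAT2, DGAT1 and DGAT2 had log2 differences between -0.20 and 0.20 on their brightest probe sets. MTTP and LPIN3 were dim and scattered widely between animals.

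Of the 16 member probe sets, 15 were bright enough to be tested, meaning that the mean signal over the 6 arrays reached 129, the median over all probe sets. LPIN3 and MTTP, with mean signals of 135 and 159, passed that filter narrowly. Differences are given as the mean of log2(signal + 16) over the ligand arrays minus that over the vehicle arrays, a scale that understates changes of dim probe sets. After Benjamini-Hochberg adjustment across all 27307 of them, limma called 0 of the 15 member probe sets and 0.00% of all. At an unadjusted p under 0.05 limma counted 1 of the 15, the brightest LPIN1 probe set, against 5.58% of all probe sets tested. That probe set was also the single one of the 15 whose groups did not overlap, against 10.9% of all tested. A count of 1 in 15 is close to these background shares. The 9 genes on their brightest probe sets showed 2 higher and 7 lower means, where 49.7% of all 13349 tested genes were lower. Their median log2 difference was -0.13, beside 0.0027 over all tested genes. Over all 15 tested member probe sets, 7 means were higher and 8 lower, with a median of -0.05. With the probe sets of a gene averaged, AGPAT2 and DGAT2 were higher, at 0.125 and 0.0697. The count of lower genes thus depends on which probe sets are read.

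**Figure D1:**
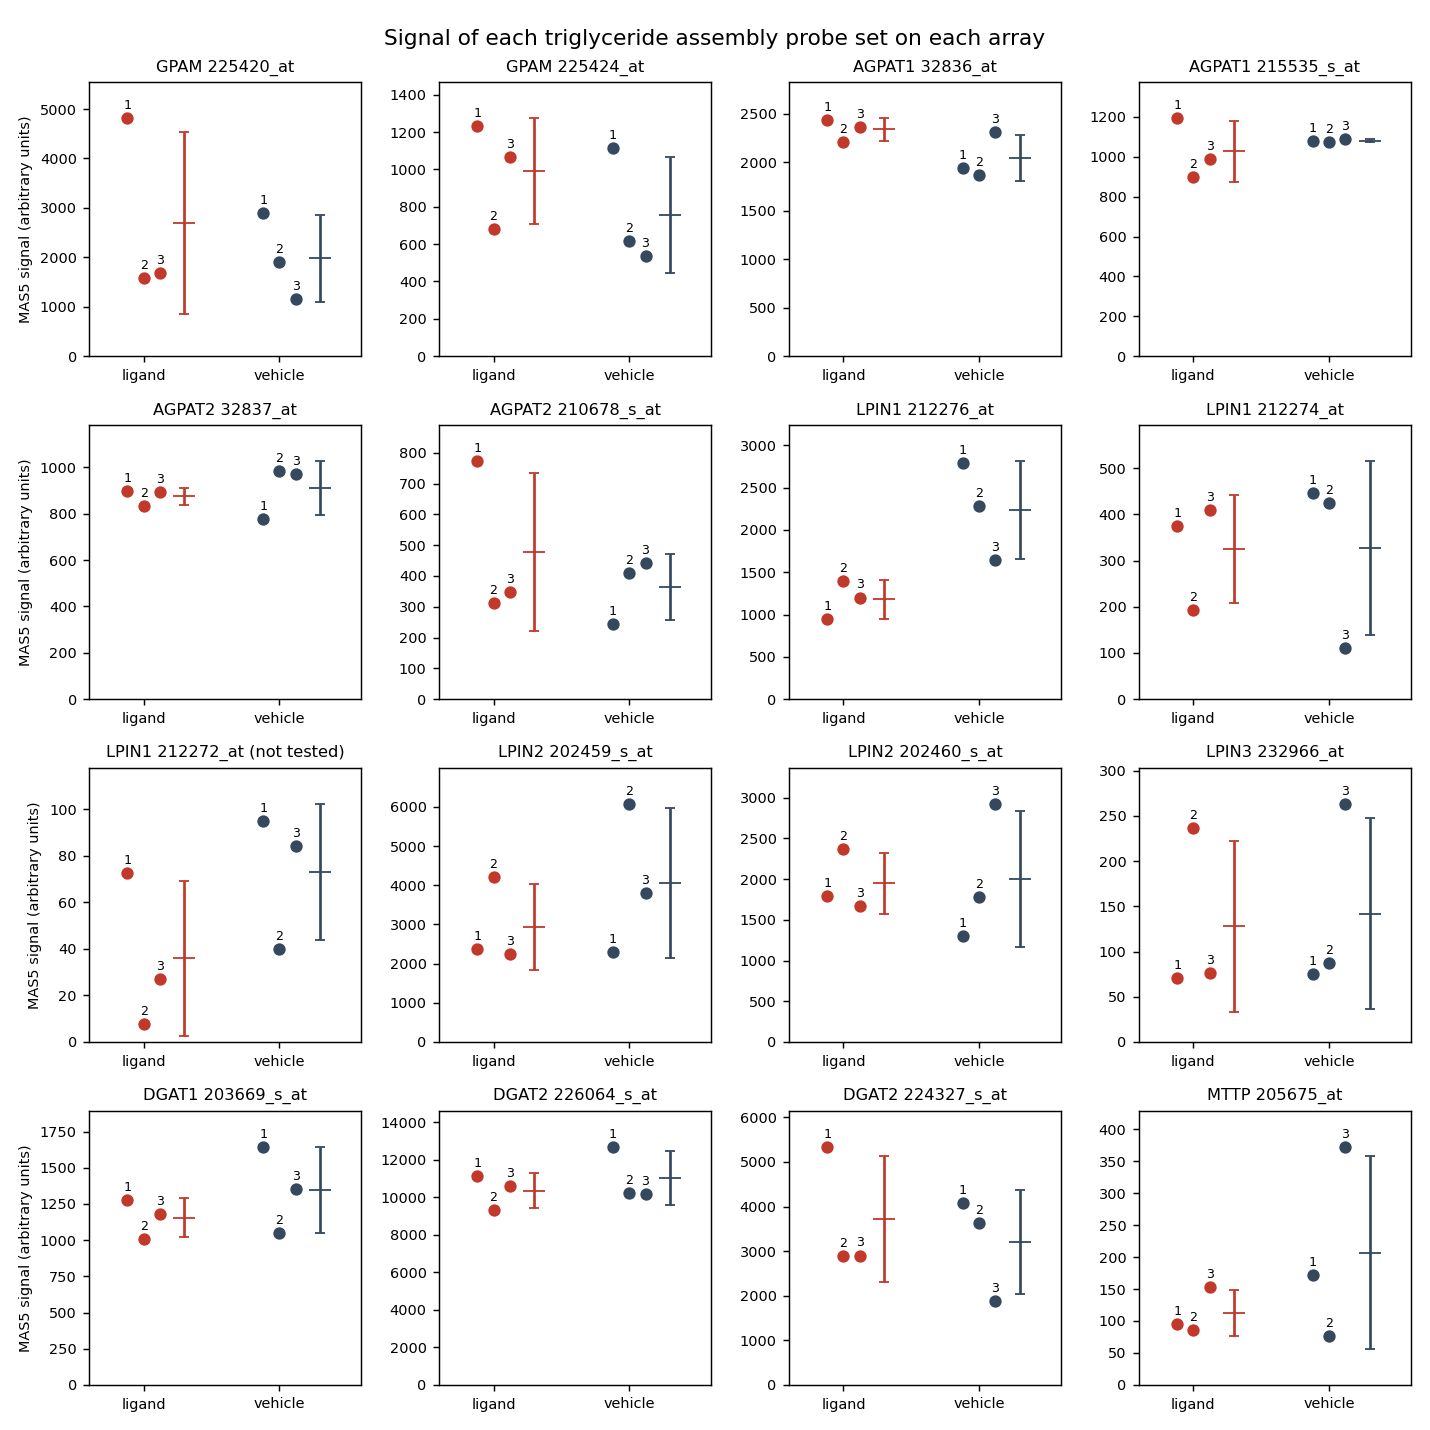
MAS5 signal (vertical axis, arbitrary units, from 0) of each of the 16 member probe sets on the 3 ligand arrays (red, left) and the 3 vehicle arrays (dark, right), numbered by animal, with the group mean and SD as a bar beside the points. LPIN1 212276_at is the one tested probe set on which the groups do not overlap, with ligand arrays at 942 to 1392 and vehicle arrays at 1639 to 2793.

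GPAM, which starts glycerolipid synthesis at the mitochondrion, was read by 2 probe sets. The brighter, 225420_at, had signals of 4818, 1588 and 1692 on ligand arrays 1 to 3 and of 2899.95, 1897 and 1149.9 on vehicle arrays 1 to 3. Ligand array 1 was far above the rest, and the other 2 ligand arrays lay within the vehicle range. The log2 difference was 0.34 ± 0.44 (SE), with a 95% interval from -0.64 to 1.33 and a limma adjusted p of 0.952. Without ligand array 1, the array that stood apart, it was -0.17, and without vehicle array 3 it was 0.0025. The dimmer probe set, 225424_at, had 1231, 679.7 and 1065 with the ligand and 1112, 616 and 538 with vehicle, so that the groups overlapped here too. Its log2 difference of 0.42 ± 0.33 (SE; limma adjusted p = 0.922) was 0.24 without ligand array 1, 0.66 without ligand array 2, 0.73 without vehicle array 1 and 0.21 without vehicle array 3. GPAM was the only one of the 6 genes with more than 1 tested probe set whose probe sets had log2 differences of the same sign. In the other 5 genes (AGPAT1, AGPAT2, LPIN1, LPIN2 and DGAT2) the probe sets differed in sign.

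AGPAT1 and AGPAT2, acyltransferases of the endoplasmic reticulum that turn lysophosphatidate into phosphatidate, were steady between animals on their brighter probe sets. The brighter AGPAT1 probe set, 32836_at, had 2439.8, 2212 and 2368 on the ligand arrays and 1945, 1873 and 2314 on the vehicle arrays. A single vehicle array reached the ligand range. The mean was 2339.9 ± 117 with the ligand and 2044 ± 237 with vehicle (SD, n = 3 per group). The log2 difference of 0.20 ± 0.20 (SE) had a 95% interval that corresponds to 0.849-fold to 1.55-fold (limma adjusted p = 0.937), and it was 0.14 to 0.29 with any 1 array left out. The other AGPAT1 probe set, 215535_s_at, had 1194, 896 and 990.3 with the ligand against 1078, 1073 and 1087 with vehicle, at a log2 difference of -0.08 ± 0.22 (SE). The vehicle animals were nearly level on it, and ligand values lay on both sides of them.

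For AGPAT2, whose loss in people causes a generalized lack of fat tissue, the brighter probe set 32837_at had 899.9, 834 and 893 with the ligand and 778, 985 and 972 with vehicle. All 3 ligand arrays lay inside the vehicle range. The log2 difference was -0.05 ± 0.22 (SE), with a 95% interval from -0.55 to 0.45. On the dimmer probe set, 210678_s_at, ligand array 1 read 773, above the 311 and 349 of the other ligand arrays and the 243, 409 and 442 of the vehicle arrays. Its log2 difference of 0.30 ± 0.39 (SE) became -0.10 without ligand array 1 and 0.04 without vehicle array 1. Of the 15 tested member probe sets, 6 had their highest signal on ligand array 1, the same array in both GPAM probe sets, both AGPAT1 probe sets, this AGPAT2 probe set and the dimmer DGAT2 probe set.

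Lipins make the diacylglycerol that DGAT enzymes use, and LPIN1 was read by 3 probe sets. The brightest, 212276_at, had 942, 1392 and 1201 on the ligand arrays and 2793, 2283 and 1639 on the vehicle arrays. The highest ligand value was below the lowest vehicle value, although the gap between them was small beside the spread of the vehicle group. The mean was 1179 ± 226 with the ligand and 2238 ± 578 with vehicle (SD, n = 3 per group). The log2 difference was -0.90 ± 0.26 (SE), with a 95% interval from -1.48 to -0.32. The limma p was 0.00579, rank 191 of the 27307 probe sets tested, and the adjusted p was 0.825, so LPIN1 did not pass.

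The other LPIN1 probe sets were much dimmer. On 212274_at the signals were 375, 192 and 409 with the ligand and 447, 425 and 109.65 with vehicle. The groups overlapped fully, and the log2 difference was 0.14 ± 0.52 (SE), with a 95% interval from -1.01 to 1.30. The difference of 212274_at was 0.47 without ligand array 2 or -0.47 without vehicle array 3, the arrays with the lowest signal in their groups. The dimmest, 212272_at, had 72.8, 7.89 and 27.2 with the ligand against 95.1, 39.8 and 84.2 with vehicle and was too dim for the main test. With no brightness filter its log2 difference was -0.92 ± 0.63 (SE; limma adjusted p = 0.952), and its groups overlapped. Within an array, the log2 ratio of 212276_at to 212274_at averaged 1.86 ± 0.79 on the ligand arrays and 2.90 ± 0.72 on the vehicle arrays (SD, n = 3 per group). That difference of -1.04 between the groups had an exact two-sided permutation p of 0.30. The smallest p that 3 arrays against 3 allow is 0.10, so this test could not have passed at 0.05.

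Because the groups did not overlap on 212276_at, leaving out 1 array could change the size of the LPIN1 difference but not its sign. Its lowest value was -1.11, when vehicle array 3 was left out, and its highest was -0.73, when vehicle array 1 was, with an unadjusted limma p of 0.00234 to 0.0294, and it was -0.75 without ligand array 1. Averaging the 2 tested LPIN1 probe sets gave -0.38. Vehicle array 1 was the highest for LPIN1, at 2793, with vehicle array 2 next at 2283. The same array stood out on the brightest probe set of the red cell gene HBB, with a signal of 11085. That HBB probe set read 865, 609 and 599.7 in the 3 ligand animals and 1255 and 828 in the other vehicle animals. The log2 differences of the other tested HBB probe sets differed in sign. Whether the red cell signal bears on the LPIN1 difference was not tested.

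**Figure D2:**
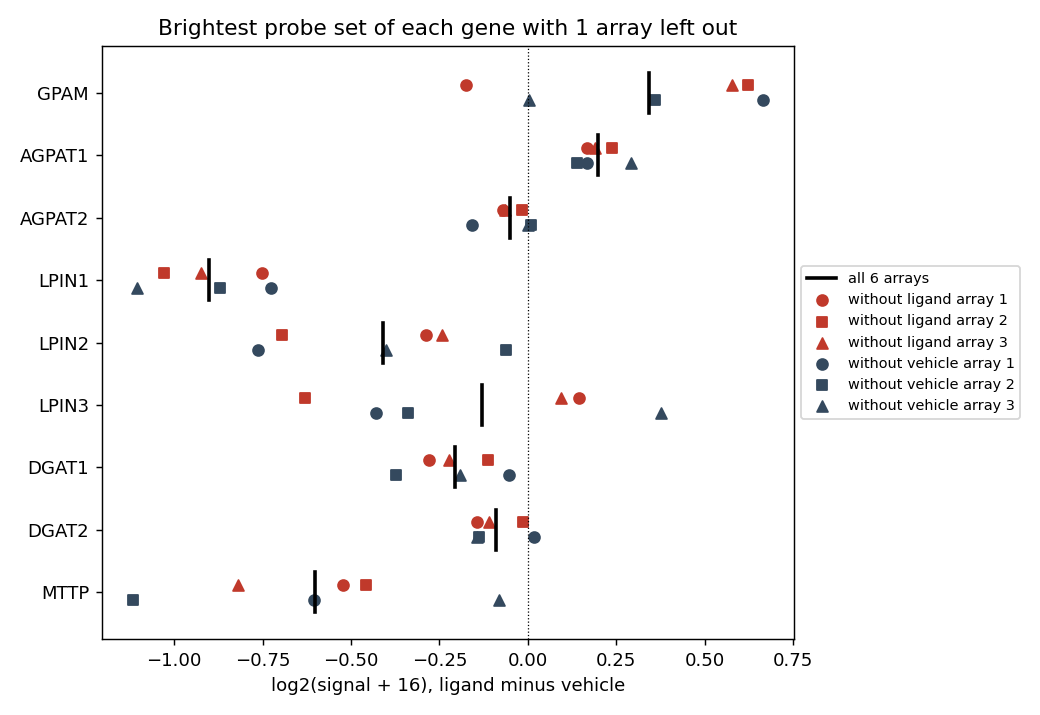
Difference of log2(signal + 16), ligand minus vehicle (horizontal axis), on the brightest probe set of each of the 9 genes, with all 6 arrays (black bar) and with each array left out in turn (red, ligand arrays; dark, vehicle arrays). LPIN1 stays between -1.11 and -0.73, while GPAM, AGPAT2, LPIN3 and DGAT2 cross 0 with at least 1 array left out.

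LPIN2 encodes the lipin that is most abundant in mouse liver. Its brighter probe set, 202459_s_at, had 2382, 4207 and 2239 on the ligand arrays and 2289.9, 6078 and 3794.5 on the vehicle arrays. The groups overlapped, with vehicle array 2 highest and ligand array 3 lowest. The log2 difference was -0.41 ± 0.36 (SE), with a 95% interval from -1.20 to 0.38 (limma adjusted p = 0.930). It depended on single arrays, since it was -0.06 without vehicle array 2, -0.24 without ligand array 3, -0.70 without ligand array 2 and -0.76 without vehicle array 1. On 202460_s_at the signals were 1794, 2376 and 1672 with the ligand against 1296, 1782 and 2926 with vehicle. There the ligand arrays lay inside the vehicle range, at a log2 difference of 0.02 ± 0.30 (SE).

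The within-array log2 ratio of LPIN1 to LPIN2, on their brightest probe sets, asks whether the lipins changed unequally. It was -1.32, -1.58 and -0.89 on the ligand arrays and 0.28, -1.41 and -1.20 on the vehicle arrays, and vehicle array 1 was the one that stood clear. The difference between the groups was -0.49, with an exact two-sided permutation p of 0.60, and it was 0.04 without vehicle array 1. Since 0.10 is the smallest p this design allows, the test could not have passed at 0.05 and does not settle whether LPIN1 and LPIN2 differed in their response.

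LPIN3, the lipin found mainly in gut and liver in mice, was close to the brightness limit. Its probe set 232966_at had 70.3, 236 and 76.4 with the ligand and 75.4, 87.4 and 263 with vehicle. In each group 1 animal was high and the other 2 were low. The log2 difference of -0.13 ± 0.69 (SE) had a 95% interval from -1.67 to 1.41, which leaves several-fold changes in either direction unresolved.

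DGAT1 and DGAT2 are unrelated enzymes that catalyse the same last step, with DGAT2 the more closely tied to newly made fatty acids. DGAT1 (203669_s_at) had 1275, 1010.2 and 1179.6 on the ligand arrays and 1644, 1051 and 1354 on the vehicle arrays. Vehicle array 2 lay among the ligand values, and the other 2 vehicle arrays lay above them. The log2 difference was -0.20 ± 0.24 (SE), with a 95% interval from -0.74 to 0.33 (limma adjusted p = 0.946). It was -0.05 without vehicle array 1, -0.11 without ligand array 2 and -0.37 without vehicle array 2.

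DGAT2 was read by the brightest of all member probe sets, 226064_s_at, with 11136, 9307 and 10624 on the ligand arrays and 12703, 10245 and 10178 on the vehicle arrays. The groups overlapped. The mean was 10356 ± 944 with the ligand and 11042 ± 1439 with vehicle (SD, n = 3 per group). The log2 difference was -0.09 ± 0.18 (SE), the smallest SE among the members, and its 95% interval corresponds to 0.718-fold to 1.23-fold (limma adjusted p = 0.969). The dimmer DGAT2 probe set, 224327_s_at, had 5342, 2889 and 2901 with the ligand against 4087, 3627 and 1874 with vehicle, at a log2 difference of 0.23 ± 0.33 (SE). That value became -0.07 without ligand array 1 and -0.12 without vehicle array 3, and it was 0.44 without vehicle array 1. The within-array log2 ratio of DGAT1 to DGAT2, on their brightest probe sets, was -3.11, -3.18 and -3.15 on the ligand arrays and -2.94, -3.27 and -2.90 on the vehicle arrays. The difference of -0.12 had an exact two-sided permutation p of 0.40. With adjustment over the 3 ratios tested here, each had a Benjamini-Hochberg p of 0.60.

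**Figure D3:**
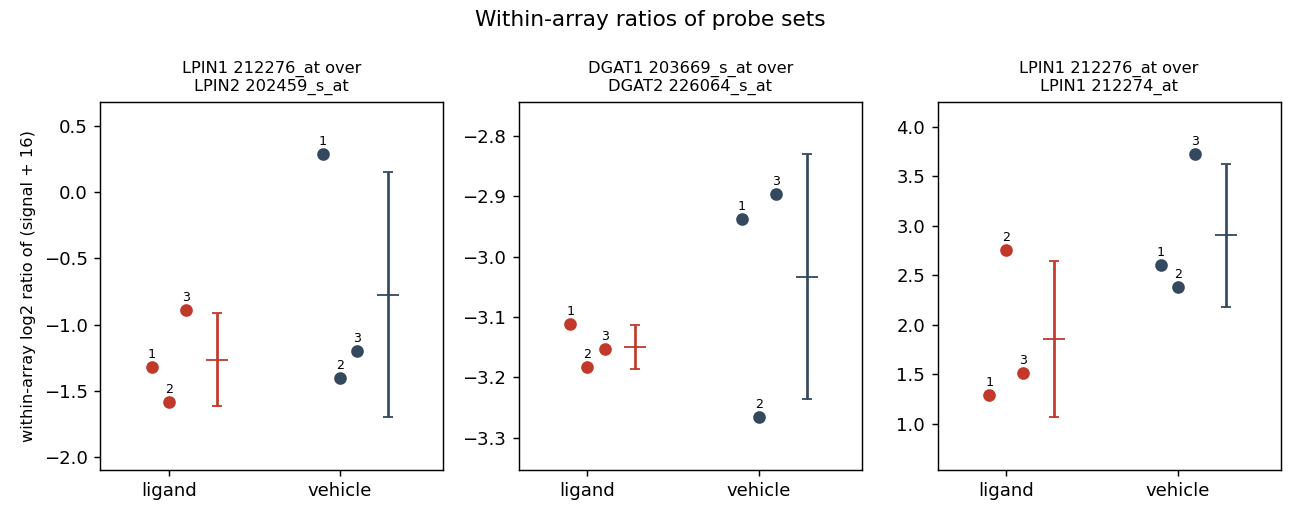
Log2 ratio of (signal + 16) between 2 probe sets within each array (vertical axis; the axes do not start at 0) for the 3 ligand arrays (red, left) and the 3 vehicle arrays (dark, right), numbered by animal, with group mean and SD as bars. In all 3 panels the groups overlap, and in the LPIN1 to LPIN2 panel vehicle array 1, at 0.28, lies above the other 5 arrays.

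MTTP, which hands triglyceride to apolipoprotein B, was read by 205675_at alone. Its signals were 95.9, 86.4 and 153 with the ligand and 172, 76.6 and 373 with vehicle. Vehicle array 3 was the highest and vehicle array 2 the lowest of all 6. The mean was 112 ± 36.1 with the ligand and 207 ± 151 with vehicle (SD, n = 3 per group), and the log2 difference was -0.60 ± 0.61 (SE), with a 95% interval from -1.96 to 0.76 (limma adjusted p = 0.941). The value was -0.08 without vehicle array 3 and -1.12 without vehicle array 2, so these data do not settle a direction for MTTP. MTTP is a well-known liver product, yet this probe set read near the array median, and whether it reads the macaque transcript well was not tested.

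**Figure D4:**
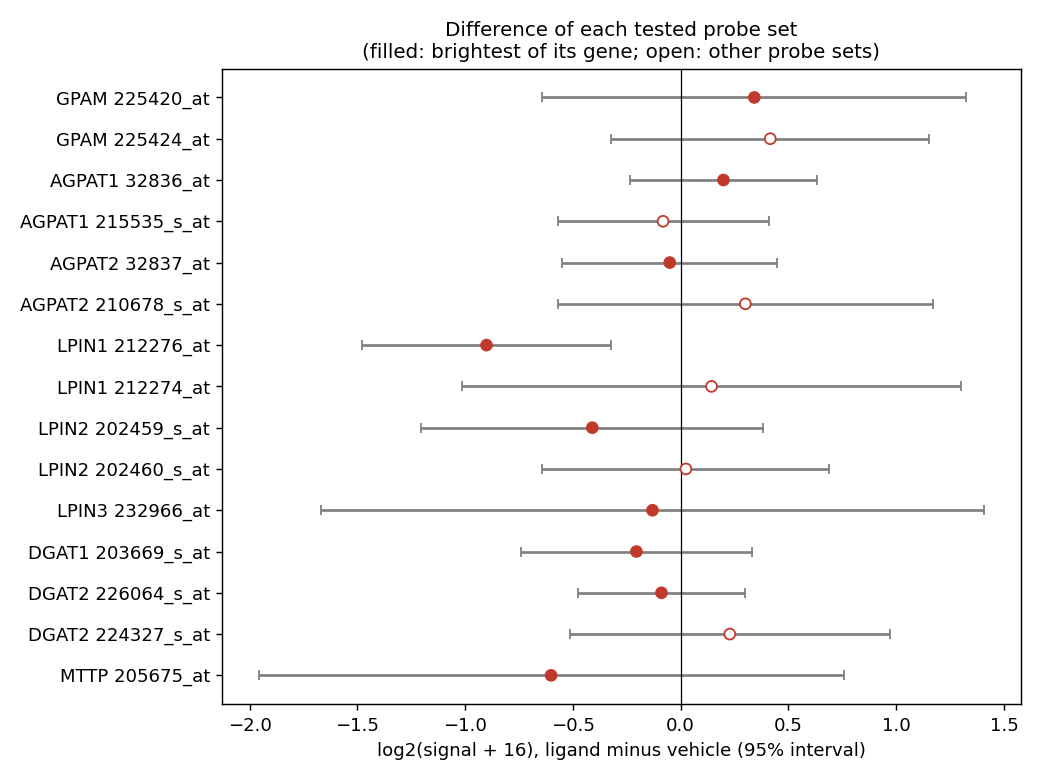
Difference of log2(signal + 16), ligand minus vehicle (horizontal axis), for the 15 tested member probe sets with 95% limma intervals, ordered by step of the pathway; filled points mark the brightest probe set of each gene and open points the others. The interval of LPIN1 212276_at, -1.48 to -0.32, is the one of 15 that does not include 0.

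The members differed in how precisely they were measured. The within-group SD of log2(signal + 16) ran from 0.13 for AGPAT1 32836_at to 0.88 for LPIN3 232966_at. In 11 of the 15 tested probe sets the difference between groups was smaller than its own SE, and in 14 the 95% interval included 0. The median SE was 0.33 over the member probe sets and 0.35 over all probe sets tested, so the members were measured about as precisely as the rest of the array.

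Of 36 further genes of glycerolipid synthesis, 29 were measured on a tested probe set with 1 symbol, and limma's test passed 0 of them after adjustment over all probe sets. On their brightest probe sets 12 had higher means and 17 lower means in ligand livers, and the median difference was -0.07 on the log2 scale. At an unadjusted p under 0.05 limma counted 1 of the 29, against 6.12% of all 13349 tested genes, and 3 had groups that did not overlap, against 11.4% of all tested genes. Over all 54 tested probe sets of these genes, 4 had an unadjusted limma p under 0.05, against 5.58% of all tested probe sets, and 3 of the 4 were not the brightest of their gene.

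On the brightest probe sets, the 1 gene with an unadjusted p under 0.05 was GPAT3, which like GPAM adds the first fatty acid but sits in the endoplasmic reticulum. It had 489, 492 and 278 with the ligand against 826, 779 and 581 with vehicle. Every ligand array was below every vehicle array, at a log2 difference of -0.80 ± 0.30 (SE; limma adjusted p = 0.858). Its relative GPAT4, the other acyltransferase of that membrane, had a log2 difference of -0.13 ± 0.18 (SE). AQP9, the channel through which liver takes up glycerol, was higher on all ligand arrays, at 4420.45, 4428 and 4755 against 3856, 3877 and 2299 with vehicle, a log2 difference of 0.48 ± 0.23 (SE; limma adjusted p = 0.880). AGPAT5, a mitochondrial member of the AGPAT family that is named here after its values were seen, was the remaining gene with separate groups. AGPAT5 had 354, 395 and 331 with the ligand against 285, 182 and 267 with vehicle, at a log2 difference of 0.55 ± 0.31 (SE; limma adjusted p = 0.890).

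Lipins are not the only enzymes that remove phosphate from phosphatidate. PLPP1, a magnesium-independent lipid phosphatase of the plasma membrane, had 13421, 16303 and 21172 with the ligand against 36194, 31977 and 15099 with vehicle. Vehicle array 3 lay among the ligand arrays, and the log2 difference was -0.64 ± 0.31 (SE; limma adjusted p = 0.880). Its other tested probe set had -0.74 ± 0.29 (SE; limma adjusted p = 0.873). PLPP2 and PLPP3, of the same family, had 0.19 ± 0.48 and 0.12 ± 0.26 (SE). PEMT, which makes phosphatidylcholine from phosphatidylethanolamine in the liver, had a log2 difference of 0.39 ± 0.21 (SE; limma adjusted p = 0.881), with overlapping groups. The 8 measured genes of phospholipid synthesis, PEMT among them, lay between -0.24 and 0.39 on their brightest probe sets. Their other tested probe sets ran from -1.08 ± 0.64 (SE) for CEPT1 to 0.43 ± 0.42 (SE) for CHPT1. Diacylglycerol kinases turn diacylglycerol back into phosphatidate. On their brightest probe sets, 5 of the 6 measured were lower and 1 higher with the ligand, all with overlapping groups. The 5 lower ones ran from -1.07 ± 0.62 (SE) for DGKQ to -0.11 ± 0.32 (SE) for DGKZ, genes named after their values were seen, and for neither did limma's test pass. A dimmer probe set of DGKH, named for the same reason, had -0.62 ± 0.26 (SE; limma adjusted p = 0.874), while the brightest had -0.40 and the remaining one 0.10. The other tested probe set of DGKZ had 0.18 ± 0.67 (SE), and those of DGKQ and DGKE had -0.92 ± 0.75 and -0.30 ± 0.44 (SE). ACSL5, which activates fatty acids as acyl-CoA and was named after its values were seen, had the smallest p of these 54 on its dimmer probe set, at 0.86 ± 0.27 (SE; limma adjusted p = 0.829). Its brightest probe set had 0.24 ± 0.35 (SE).

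Among 10 listed partners of MTTP in building and exporting VLDL, 9 were measured, limma passed 0 after adjustment, and 1 had an unadjusted p under 0.05, against 6.12% of all tested genes. Of these, 5 were higher and 4 lower, and the median difference was 0.0047 on the log2 scale. APOB, the structural protein of the particle and named here because MTTP acts on it, had a mean of 124250.0 ± 11135 with the ligand and 120961 ± 6986 with vehicle (SD, n = 3 per group), and its log2 difference was 0.04 ± 0.14 (SE). P4HB, the subunit that holds MTTP in its active complex, had a log2 difference of 0.10 ± 0.21 (SE). PDIA3, a related protein disulfide isomerase, had 33657, 27388 and 22523 with the ligand against 20250.3, 18801 and 16624 with vehicle. Its groups did not overlap, and the log2 difference was 0.57 ± 0.19 (SE; limma adjusted p = 0.829). A second PDIA3 probe set had 0.14. SAR1B, a GTPase of the vesicles that carry large lipoproteins, had -0.46 ± 0.23 (SE; limma adjusted p = 0.880), and its other 3 tested probe sets also had negative differences, of -0.22, -0.32 and -0.26. CIDEB, which helps to add lipid to nascent VLDL, had -0.45 ± 0.34 (SE; limma adjusted p = 0.918).

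**Figure D5:**
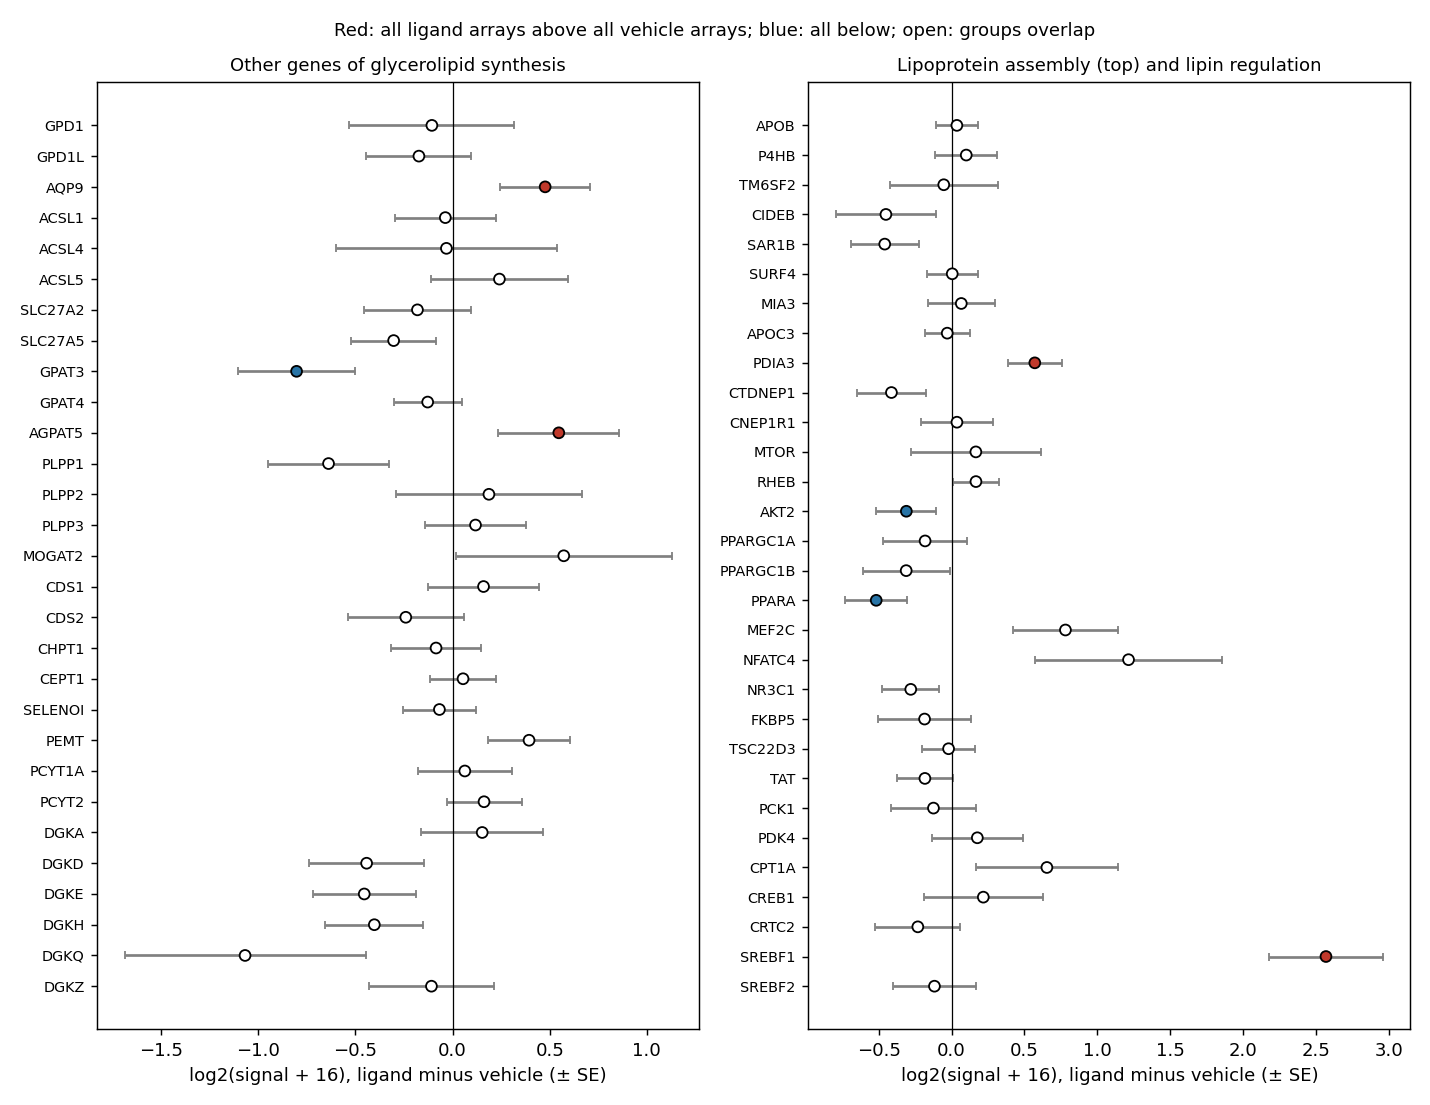
Difference of log2(signal + 16), ligand minus vehicle, with SE (horizontal axes), on the brightest tested probe set of 29 other genes of glycerolipid synthesis (left), and of 9 genes of lipoprotein assembly and 21 of lipin regulation (right); red marks genes whose ligand arrays all lie above the vehicle arrays, blue those whose ligand arrays all lie below. SREBF1, at 2.57, lies farthest from 0, and GPAT3, at -0.80, is the glycerolipid gene whose ligand arrays all lie below.

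Genes known to control the lipins or to work with them made up a further list, of which 21 of 25 were measured. Limma passed 0 after adjustment over all probe sets and counted 2, SREBF1 and PPARA, at an unadjusted p under 0.05, against 6.12% of all tested genes. Of the 21, 9 were higher and 12 lower, the median difference was -0.12 on the log2 scale, and 3 had groups that did not overlap, against 11.4% of all tested genes. SREBF1, whose product induces LPIN1 in sterol-depleted human liver cells, had 3826, 1289 and 3450.13 with the ligand against 337, 408 and 541 with vehicle. Every ligand array was above every vehicle array, at a log2 difference of 2.57 ± 0.39 (SE; limma adjusted p = 0.370), while a second SREBF1 probe set had -0.60. LPIN1 thus had its lower signals on the 3 arrays with the higher SREBF1 signals on this probe set. That follows from both probe sets separating the groups, and a relation between the 2 genes was not tested.

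PPARA, the receptor of fatty acid oxidation that lipin 1 coactivates in mouse liver, had 3115, 2548 and 3234 with the ligand against 4849, 3371 and 4619.5 with vehicle. Its groups did not overlap, and the log2 difference was -0.52 ± 0.21 (SE; limma adjusted p = 0.874). Its other 5 tested probe sets also had negative differences, from -0.81 to -0.17. AKT2, a kinase of insulin signalling that was named after its values were seen, was the remaining gene with separate groups, at -0.31 ± 0.21 (SE). Its other 3 tested probe sets differed in sign, at -0.10, -0.36 and 0.11. MEF2C, a transcription factor of muscle and other tissues, and NFATC4, which lipin 1 represses in mouse fat cells, had 0.78 ± 0.36 and 1.21 ± 0.64 (SE), with overlapping groups and limma adjusted p of 0.880 and 0.881. The MEF2C difference was in the same direction on its other 2 tested probe sets, at 0.72 and 0.76. PPARGC1A, which encodes PGC-1 alpha and induces LPIN1 in fasted mouse liver, had -0.18 ± 0.29 (SE).

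The genes whose signal followed LPIN1 212276_at most closely over the 6 arrays were C19orf33, BMAL1, PDCD5, SLC30A5 and ZNF574. Their Pearson's r with LPIN1 was 0.99 for C19orf33, 0.98 for BMAL1 and 0.97 for each of the other 3, as a description over n = 6 arrays that all carry both probe sets. Of 13348 genes ranked, 80 had an r above 0.9. BMAL1, a core factor of the circadian clock, had 8329, 8573 and 8673 with the ligand against 9978, 9504 and 9148 with vehicle. Its spread was narrow, with a log2 difference of -0.16, so the likeness to LPIN1 lies in the relative spacing of the arrays and not in the size of the difference. Among the members, the values of r with LPIN1 ran from -0.91 for AGPAT1 to 0.37 for DGAT2.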

How the data were processed

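The deposited table holds intensity values on a linear scale, which are MAS5 signals per the submitters' processing notes. Their version, scaling target and detection calls are not given in the sources used here. The 2% trimmed mean was 500.1 on every array. RNA was column-purified from liver and biotin-labelled, per the labels' protocols.

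Groups were read from the titles. Control probe sets (62) were left out, log2(signal + 16) was taken under the deposited scaling, and probe sets whose mean signal reached the median entered the test. These numbered 27307, of which 22566 carried 1 symbol, 1033 several and 3708 no symbol. Names come from the platform annotation. Tests were two-sided and used limma 3.58.1 in R 4.3.3 (lmFit, then eBayes with its trend option), without covariates, with Benjamini-Hochberg adjustment and a threshold of 0.05; the code was tested on simulated data. Within-array ratios and RNA integrity used exact permutation tests. A gene was represented by its brightest tested probe set.

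All members were described, with genes of each list by unadjusted p under 0.05, filled up to 4 by smallest p, and the 5 genes most correlated with LPIN1. The members and lists were chosen with earlier results of these data known. The number of arrays limits the precision, and figures were drawn with matplotlib 3.10.9.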

Additional observations from a re-analysis of the deposited data

How the results depend on the processing

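The analysis was repeated with a pseudocount of 1 or 64, after quantile normalization or median centring of the arrays, with no filter or one at the 75th percentile (which removed LPIN3 and MTTP), without the trend in eBayes, with the replicate number as a block, with the tested probe sets of a gene averaged, at a threshold of 0.10 and without each array. LPIN1 was -1.11 to -0.38 over the 15 alternatives run for it, with limma adjusted p from 0.561 to 0.941. The number of probe sets passing at 0.05 was 0 under every alternative with all 6 arrays and 0 to 1 with an array left out. At 0.10 it was 0 with all 6 arrays, or 1 without the trend. It was also 1 at 0.10 without ligand array 1, without ligand array 2 or without vehicle array 2. The count of member probe sets with an unadjusted p under 0.05 was 1 under every alternative with all 6 arrays and 1 to 3 with an array left out. It was 3 of 15 without vehicle array 1, where LPIN2 202459_s_at and GPAM 225424_at joined LPIN1. Among all 27307 probe sets tested, 1364 had such a p without vehicle array 1, and 1523 with all 6 arrays. The median over the 9 genes ran from -0.17 to -0.08 with an array left out.

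Directions turned for LPIN3, at -0.63 to 0.38 with an array left out, GPAM, at -0.17 to 0.66, AGPAT2, at -0.16 to 0.0087, and DGAT2, at -0.14 to 0.016. With probe sets averaged, AGPAT2 was 0.125 and DGAT2 0.0697. The LPIN1 to LPIN2 ratio difference ran from -0.81 to 0.0390 and was 0.0390 without vehicle array 1, the DGAT1 to DGAT2 one from -0.23 to -0.05 and the LPIN1 probe set one from -1.49 to -0.63. The causes were not tested.

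Same-numbered arrays did not deviate together, with correlations of 0.040, -0.031 and 0.069, so the numbers were not taken to pair the animals. With the replicate block, LPIN1 was -0.90 at an unadjusted limma p of 0.00832, 0 probe sets passed, and no call changed.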
